A study of Homo sapiens with 40 samples.

Results

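CTCF peaks at promoters carrying H3K27ac were examined in EndoC-βH3 cells, a human pancreatic beta-like line grown in culture. A member was a CTCF peak that overlapped a window of 2 kb on either side of a protein-coding start site (GENCODE 44) and overlapped a peak of H3K27ac by at least 1 bp. Of 51457 CTCF peaks, 7680 met both conditions, or 14.9% (95% Wilson interval 14.6 to 15.2%). The other CTCF peaks fell into 3 classes, namely 3381 at promoters without H3K27ac, 7967 in H3K27ac peaks outside promoters, and 32429 outside both. The cells carry SV40 large T antigen and hTERT in a form that Cre can excise. Control cells kept them, and cells driven into senescence received 4-hydroxytamoxifen for 3 weeks to activate the recombinase. CTCF and H3K27ac were each immunoprecipitated from 3 control and 3 senescent samples, each with its own input. H3K4me1 and Rb were profiled in 2 and 2 samples, which makes 40 libraries with the inputs. All came from 1 cell line, and no source used here says that the samples were separate cultures.

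CTCF is a zinc-finger protein that recognizes a long, GC-rich DNA element and, together with the ring-shaped cohesin complex, anchors chromatin loops. It binds at boundaries of chromatin domains and also close to many start sites. H3K27ac is the acetylation of lysine 27 on histone H3, which marks promoters and enhancers in an active state. CTCF sites are directional, since loops form mostly between sites that point toward each other, so a site can be described by its strand relative to the gene.

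The H3K27ac peaks were set against markers of pancreas cells. All 12 beta-cell marker genes listed (among them INS, PDX1, NKX6-1, NKX2-2, CHGA and PAX6) had an H3K27ac peak at a promoter, as did 8 of 20 markers of other pancreas cells (40%) and 13059 of all 19663 protein-coding genes (66.4%). GCG, PPY, PRSS1, CFTR, COL1A1, PECAM1 and PTPRC, which mark alpha, PP, acinar, ductal, stromal, endothelial and immune cells, had none. The value used for a peak was the authors' mean over the 6 libraries of a mark, in normalized counts. It spans control and senescent samples, so it describes where CTCF sat and not how it changed, and a spread between libraries could not be given. Regions share the same libraries and are not replicates. Differences between classes of regions are therefore given with intervals that cover counting error alone, and none was tested.

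The sites that carry the comparison are shown first. A 12-base CTCF core was searched on both strands as CCA, 2 free bases, AG, 2 free bases and GGC, and a 20-base weight matrix was learned from CTCF peaks outside promoters and H3K27ac, which are among the peaks it was then scored on. Sequences are from hg38, 5′ to 3′ on the strand of the site, with 1-based positions. The first set holds strongly bound members with the core pattern, whose 12 bases are in capitals.
EFHD1, chr2:232605970-232605999, plus strand: cggcggtatCCAGCAGAGGGCgcgccaggc
PSMD1, chr2:231056554-231056583, plus strand: gacctcccaCCAGTAGGTGGCactgcgcgc
STAG1, chr3:136752398-136752427, minus strand: gcaccgcggCCAGCAGAGGGCggtccggac
PTPRN, chr2:219298860-219298889, minus strand: tctttctcaCCAGCAGATGGCgtaggtgtc
IRF9, chr14:24161149-24161178, minus strand: aactggcggCCACTAGAGGGCagcagcatc
The second set was chosen after the values were seen, to show members whose matrix site (20 bases in capitals) departs from that pattern.
PTMA, chr2:231710435-231710464, plus strand: gggctTCGGCCGCCAGGGGGCGAGAgcggg
FOXA2, chr20:22586838-22586867, minus strand: gcctgGCGGCCGACAGGGGGCGCCCtgtca
CDKN2B, chr9:22008754-22008783, minus strand: agggcCTCGCCGGCAGGGGGCGCGCgaacg
CTCF, chr16:67562753-67562782, plus strand: cgcggGCCGCCTCTAGGTGTCACGAtgggg

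CTCF levels at active promoters were close to those elsewhere in the genome. The median member had a mean count of 57.9 (quartiles 21.5 to 191), against 57.2 at promoters without H3K27ac, 54.2 in H3K27ac outside promoters and 60.1 outside both. The order of the classes among strong peaks depended on the limit. Means of at least 100 counts were found in 38.1% of members, 38.3% of peaks in H3K27ac outside promoters and 39.1% of those outside both. At 500 counts or more these were 291 members (3.79%), 3.20% and 1.34%, and at 1000 or more 16 members (0.21%), 0.28% and 0.10%. Members accounted for 16.7% of the counts summed over CTCF peaks. They were similar in width to the rest, with a median of 885 bp against 847 bp outside both, and so the count per kb was also close, 66.3 against 70.7.

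The sequence under these peaks was unlike that of distal CTCF peaks. Median GC content was 60.7% in members, 54.2% at promoters without H3K27ac, 48.4% in H3K27ac outside promoters and 43.2% outside both. CpG dinucleotides, which are depleted in most of the genome but kept in CpG islands, stood at 0.72 of the number expected from base composition in members and at 0.22 outside both. A comparison by GC content was therefore made. Other CTCF peaks were weighted so that their GC content matched that of the members in bins of 1 percentage point, which could be done for 7506 members.

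**Figure D1:**
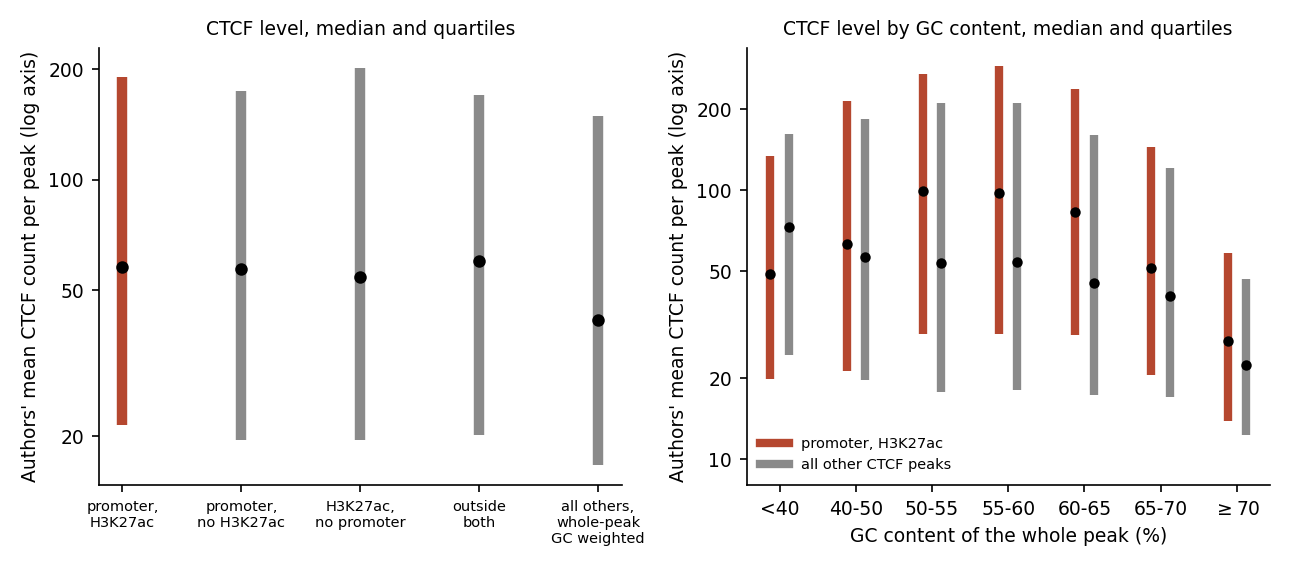
CTCF level of promoter CTCF peaks with H3K27ac and of the other classes. Left, authors' mean count per peak on a log axis by class, with the other peaks also weighted to the members' GC content; right, the same by GC content of the whole peak. Dots are medians and bars run from the lower to the upper quartile; the classes have medians of 54.2 to 60.1, and the GC-weighted peaks 41.3.

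The comparison of CTCF level at matched GC content depended on how GC was measured. With GC over the whole peak, the median was 60.3 in members and 41.3 in the weighted other peaks, a ratio of 1.46 (95% interval 1.34 to 1.60). The gap was widest between 50 and 65% GC. At 55 to 60% GC the median was 97.5 for 1347 members and 53.9 for 3648 other peaks, whereas under 40% GC it was 48.9 for 255 members and 73.2 for the others. Members were also wider than the weighted peaks, at 903.5 against 709 bp, and per kb of peak the ratio fell to 1.14. When GC was taken from the 200 bases at the peak centre, the ratio was 0.97 (0.89 to 1.07), so a higher level in members was not seen on that measure. The direction varied along the range. Members had the higher median at 40 to 50% GC (58.2 against 50.3) and at 50 to 60% (58.2 against 51.7), were close to the others below 40% (76.2 against 75.8), and had the lower median at 60 to 70% (58.9 against 67.8) and from 70% (55.8 in 2642 members against 62.0 in 1625 other peaks).

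Fewer of the members carried a recognizable CTCF element. The core pattern was present in 1142 members (14.9%, 14.1 to 15.7%), in 22.95% of CTCF peaks at promoters without H3K27ac, in 20.6% of those in H3K27ac outside promoters and in 26.5% of those outside both. Windows of the same widths shifted by 10 kb from the members held it in 3.63%. Their median GC content was lower, 44.5% against 60.7% in members. Against GC-weighted CTCF peaks the shares were 15.1% and 23.8%, a difference of -8.78 percentage points (-9.96 to -7.59). The weight matrix, a measure added after the data had been seen, was scored at a cutoff that 5% of shifted windows reach. It found a site in 32.1% of members (31.1 to 33.2%), 54.1% of promoter peaks without H3K27ac, 44.5% of peaks in distal H3K27ac and 63.1% of peaks outside both. The GC-weighted share was 51.9% against 32.6% in the members it covered.

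The matrix had been learned on distal peaks, so a second matrix was learned on the 2000 members with the highest level. It was started from core windows of distal peaks and refined on 1931 windows of those members that scored well. It was therefore not independent of the distal peaks and could miss sites unlike theirs. Its consensus, NNNGCCNCCAGGGGGCGCNN, has more G and C than that of the distal matrix, NNNNCCACNAGGGGGCANNN. In the 200 central bases, the member matrix found a site in 28.5% of members and in 44.7% of the other CTCF peaks weighted to the same GC. It also found one in 10.6% of windows around start sites that had H3K27ac but no CTCF peak, at the members' GC. The distal matrix found sites in 15.1% of members, 37.8% of the other CTCF peaks and 1.19% of those start-site windows. The members scored with the member matrix include those it was learned on.

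The share with a site rose with CTCF level and was below that of the other peaks at each level. CTCF peaks were split into 4 equal groups by level, at 20.2, 58.6 and 176 counts. Among members the matrix found a site in 8.42%, 17.8%, 32.7% and 66.8% from the lowest to the highest group, while the GC-weighted other peaks gave 27.9%, 44.5%, 64.1% and 88.2%. In the highest group 681 of 2050 members thus had no site at this cutoff. The matrix had been learned on the 5000 peaks outside both with the highest level, which fall in the highest group of the other peaks. The share of the other peaks in that group, and its distance from that of members, is therefore set in part by this choice. Peak width rose with level as well, from a median of 357 bp in the lowest to 1688 bp in the highest group, so longer sequence was searched there. In the 200 central bases alone, the distal matrix gave 5.60% and 28.6% of members in the lowest and highest groups, and 22.9% and 49.9% of the others.

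**Figure D2:**
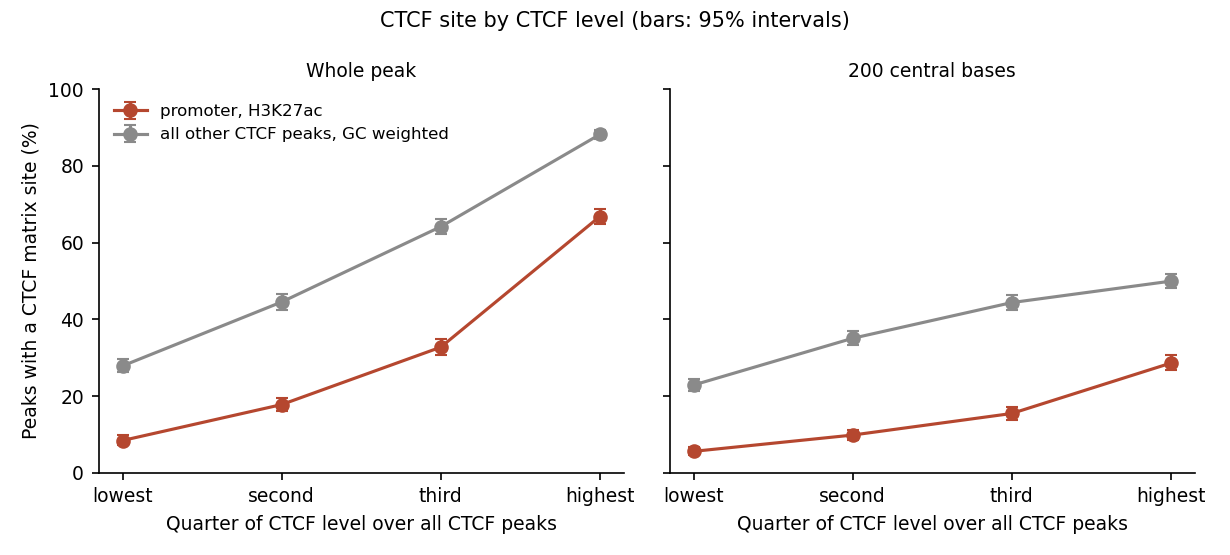
Share of CTCF peaks with a weight-matrix site (percent, vertical axis) by group of CTCF level (horizontal axis), for promoter peaks with H3K27ac and for all other CTCF peaks weighted to their GC content. The left panel searches the whole peak and the right panel the 200 central bases, with 95% intervals as bars; members lie below the other peaks in all 4 groups of both panels.

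The base after the leading CC of the core differed as well. With the A of CCA left free, a match was found in 42.9% of members and 37.4% of peaks outside both, and in 47.2% of the GC-weighted peaks. Among the matches nearest the peak centre, an adenine stood in that place in 28.5% of members, 47.7% of promoter peaks without H3K27ac, 54.5% of peaks in distal H3K27ac and 68.2% of peaks outside both. Guanine was found there in 29.5% of members and 6.26% of peaks outside both. Matches by chance, which GC-rich sequence makes more frequent, are included in these shares. Members seldom held several elements. The core occurred once in 1056 members, at 2 places in 74 and at 3 or more in 12. Where a matrix site was found, its median distance from the peak centre was 103 bp (quartiles 42.5 to 230 bp), and 29.0% lay within 50 bp of it.

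Members were concentrated around start sites. Their centres lay at a median of 5 bp downstream of the nearest start, with quartiles from 238 bp upstream to 343 bp downstream, and 46.4% (45.3 to 47.5%) lay within 250 bp of a start. Of the promoter CTCF peaks without H3K27ac, 23.2% lay that close. The peak itself covered a start site in 61.1% of members and in 32.1% of the latter. Both classes had been drawn from the same windows of 2 kb, but members had to overlap an H3K27ac peak and the others to miss one. Their positions thus depend on where H3K27ac peaks lie around starts, and the contrast can be set in part by the definition. Of the 2637 members beyond 500 bp, 57.1% (55.2 to 59.0%) lay downstream, where the distribution without H3K27ac was even (49.8%). When start sites were limited to the canonical transcript of each gene, 31.8% of members lay within 250 bp.

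**Figure D3:**
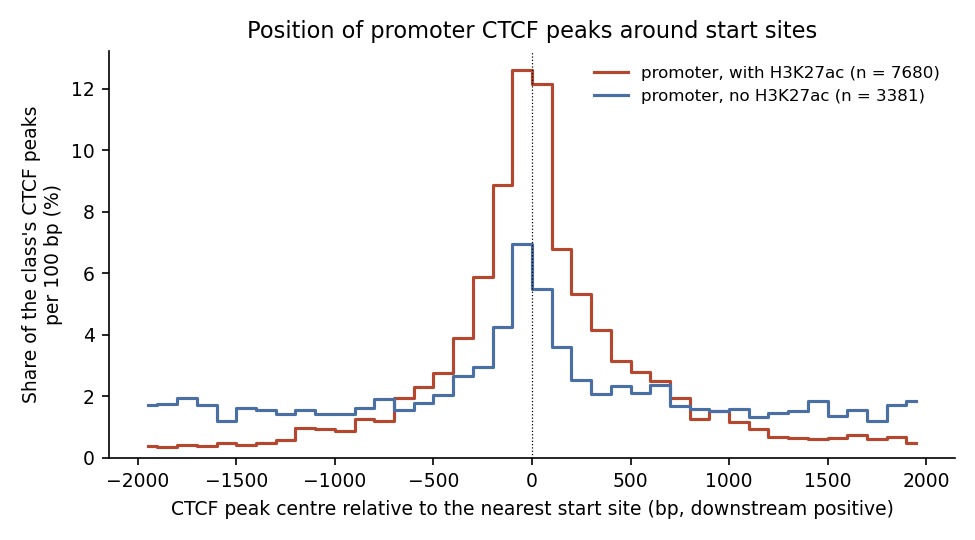
Distance from the centre of a promoter CTCF peak to the nearest protein-coding start site (bp, downstream positive), as the percent of each class per 100 bp. Red, 7680 peaks with H3K27ac; blue, 3381 without; the red curve reaches 12.6% in the 100 bp upstream of the start and the blue one 6.95%.

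Level varied little with this distance. The median was 59.9 counts for the 1894 members centred within 100 bp of a start, 54.1 at 250 to 500 bp and 57.4 at 1000 to 2000 bp. The share with a matrix site was 27.5%, 28.4% and 41.5% at these distances, while median GC content was 64.8%, 61.9% and 51.8%. By annotation, 3349 member centres (43.6%) were in introns, 1603 (20.9%) in UTRs, 778 (10.1%) in coding exons and 1950 (25.4%) outside protein-coding genes. UTRs held 10.6% of the promoter peaks without H3K27ac.

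The strand of the element was close to evenly split by the core and less so by the matrix. Of 1095 members with the core on 1 strand only, 554 (50.6%, 47.6 to 53.5%) had it on the strand of the nearest gene. The looser pattern gave 51.2% of 2709. The matrix gave 55.2% (53.2 to 57.1%) of 2466, whose interval excludes an even split. With the core, 55.3% (51.3 to 59.2%) of the 604 members centred upstream and 44.8% (40.5 to 49.2%) of the 491 centred downstream pointed along the gene. By the matrix these shares were 57.6% and 52.3%.

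The 10 members with the highest level reached 1115 to 1628 counts, and each had a matrix site. The highest was in an intron of EFHD1, whose product is a calcium-binding mitochondrial protein (chr2:232605174-232607211, 1628 counts, centre 136 bp downstream of a start). The next were at RNPEPL1 (1571), CHD1L (1326), which encodes a chromatin remodeller, AHCY (1244) and KCNH1 (1222). They were followed by BCL2L1 (1208), the gene of an anti-apoptotic protein, BCL6 (1203), a transcriptional repressor, PTMA (1177), PSMD1 (1141), a proteasome subunit, and RBM17 (1115). The H3K27ac level under them varied widely. PTMA had 11171 H3K27ac counts in a peak of 10704 bp and BCL2L1 4510, whereas EFHD1 had 108, BCL6 121, RBM17 88.0 and KCNH1 59.2. Strong CTCF was thus found in H3K27ac peaks of both high and low level. These levels belong to the H3K27ac peak that the CTCF peak overlapped, which need not be the gene's highest. At BCL6 the CTCF peak was centred at -2378 bp from the nearest start (negative values are upstream), with its matrix site at -3094 bp. At RBM17 these positions were -1325 and -2452 bp. Both CTCF peaks covered a start.

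Over all members, CTCF level hardly varied in rank with H3K27ac level. Across the 7680 members, the rank correlation between CTCF level and the level of the H3K27ac peak was -0.09, and -0.06 per kb; peaks share the same libraries, so this is a description only. Members were split into 4 groups of 1920 by H3K27ac level per kb. From the group with the least H3K27ac to that with the most, the median CTCF level was 80.5, 58.8, 52.7 and 52.4 counts. The matrix found a site in 40.4% (38.2 to 42.6%), 32.5%, 28.0% and 27.5% (25.5 to 29.5%) in the same order. Median GC content was 60.9% in the group with the least and 60.3% in that with the most. Most members (5739, 74.7%) lay entirely inside the H3K27ac peak, and in 453 (5.90%) the centre lay outside it.

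Seen from the H3K27ac side, 6949 of 14007 H3K27ac peaks at promoters (49.6%, 48.8 to 50.4%) overlapped a CTCF peak. One CTCF peak was found in 5827 of them, 2 in 938 and 3 or more in 184, with a maximum of 8. Those with CTCF had a median of 590 H3K27ac counts and a median width of 3045 bp, those without 341 counts and 2422.5 bp. With GC content weighted, the medians were 599 and 338, a ratio of 1.77 (1.65 to 1.90). The gap was far smaller at matched width. When peaks without CTCF were weighted to the same widths, the medians became 557 and 523, a ratio of 1.06 (1.00 to 1.14). A wider peak offers more room for an overlap. The share with CTCF rose from 33.9% in the narrowest of 5 equal groups of H3K27ac promoter peaks to 66.7% in the widest. Within these groups the H3K27ac count per kb was close between peaks with and without CTCF, for example 188 and 182 in the middle group and 243 and 213 in the widest.

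**Figure D4:**
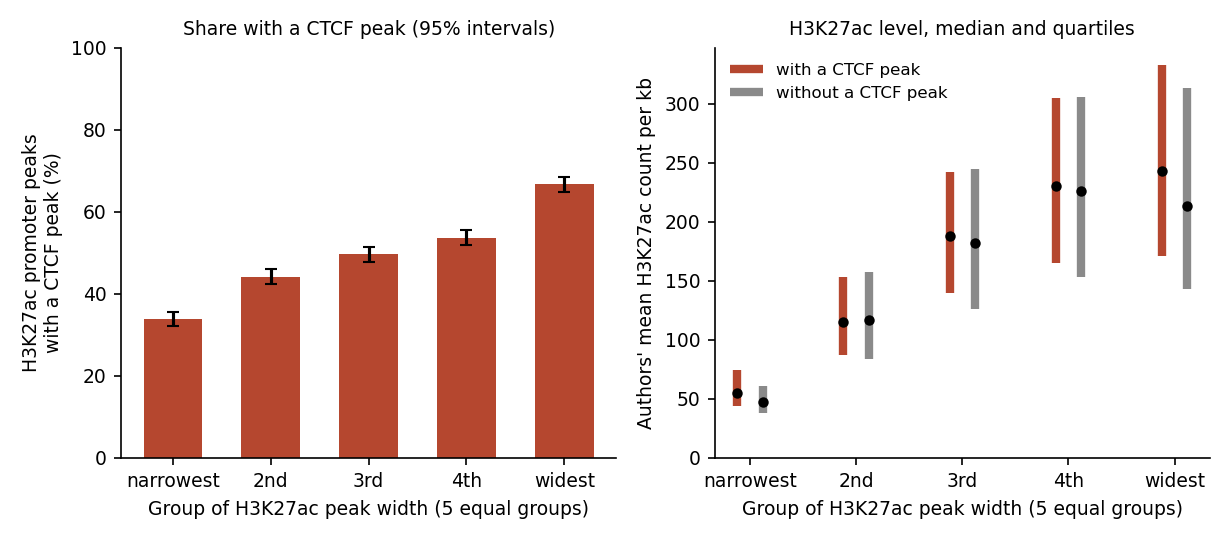
H3K27ac peaks at promoters in 5 equal groups of peak width (horizontal axis). Left, the percent that overlap a CTCF peak, with 95% intervals, from 33.9% to 66.7%; right, the authors' mean H3K27ac count per kb with and without a CTCF peak, as medians (dots) and quartiles (bars), which lie close together in each group.

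GC content of the promoter itself went with the presence of CTCF. Each gene's canonical start was taken with the 250 bases before and 50 bases after it. Among promoters with H3K27ac, a member was present at 36.5% (32.7 to 40.6%) of those with 40 to 50% GC, 50.3% of those with 60 to 70% GC and 66.3% (62.6 to 69.8%) of those with 80% or more. Divergent promoters, which have another gene starting on the opposite strand within 1 kb upstream, held a member somewhat less often, at 47.5% (45.4 to 49.6%) of 2204 against 53.1% (52.1 to 54.0%) of 10367. Within ranges of GC content the gap varied. The shares were 37.5% and 35.4% under 50% GC, 40.6% and 43.2% at 50 to 60%, 45.3% and 51.7% at 60 to 70%, and 57.9% and 62.0% from 70%, and the intervals were apart only at 60 to 70%.

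Motifs of other promoter factors were counted in the same 300 bases, on both strands, in 6548 active promoters with a member and 5799 active ones with no CTCF peak, the latter also weighted to the GC content of the former. The CTCF core was in 4.14% and 1.85%, or 1.95% when weighted, against 2.79% of all 19662 promoters. The ETS site CCGGAAGT was in 7.41% (6.80 to 8.07%) of promoters with a member and in 11.3% (10.6 to 12.2%) without, or 10.5% when GC weighted, and in 6.11% of all. The YY1 site was in 1.88% and 2.72%, or 2.74% when weighted, and in 1.44% of all. The CCAAT box CCAATCA was in 8.63% and 11.0%, or 9.88% when weighted, and in 8.93% of all. The GC box GGGGCGGGG was in 32.6% and 28.8%, but in 35.4% of the weighted ones, and in 24.7% of all, so its direction turned with GC. TATAAA was in 4.69% and 5.45%, but in 3.82% of the weighted ones, and in 9.65% of all, so its direction turned as well. The E-box CACGTG was in 9.61% and 10.7%, or 11.3% when weighted, and in 8.75% of all. The ZNF143 site was in 3.83% and 4.79%, or 4.17% when weighted, and in 2.82% of all. The CRE TGACGTCA was in 3.38% and 3.98%, or 3.84% when weighted, and in 2.72% of all, and the NRF1 site in 2.47% and 2.50%, or 2.52% when weighted, and in 1.70% of all. The NRF1 site, the CRE and the E-box read the same on both strands, and the GC box may overlap the CTCF core.

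Of 19663 protein-coding genes, 13059 had an H3K27ac peak at a promoter, and 7194 of those (55.1%, 54.2 to 55.9%) had a member. A CTCF peak was found at 23.8% of the 6604 genes without promoter H3K27ac. Single members were found at 5882 genes, 2 at 1127 and 3 or more at 185, the most being 7 at GIT1, a scaffold protein of the cytoskeleton. Because windows overlap, 1007 members belonged to more than 1 gene. The 11 lists of genes were set against the 55.1% of all active genes, and the interval of every list included that value.

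**Figure D5:**
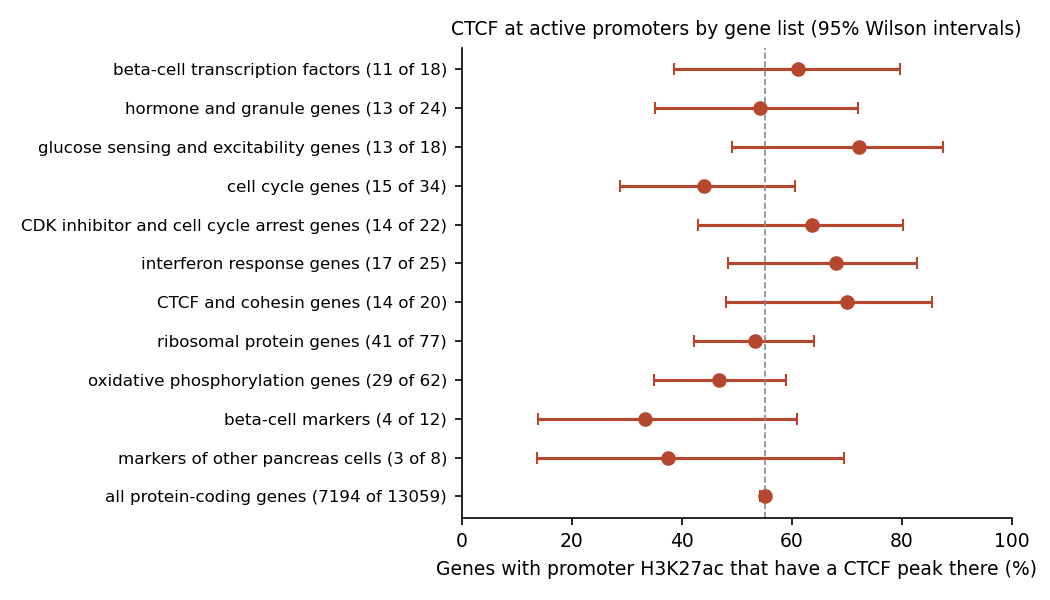
Percent of genes with promoter H3K27ac that have a CTCF peak overlapping it (horizontal axis), by gene list, with 95% Wilson intervals and the number of genes in brackets. The dashed line is the value for all protein-coding genes, 55.1%; every interval includes it.

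Among beta-cell transcription factors, 11 of 18 with promoter H3K27ac had a member. FOXA2 (540 counts) and MAFA (464) were among the highest. FOXA2 lay in an H3K27ac peak of 7992 counts, but the MAFA member, which covered the start itself, overlapped a peak of only 43.6 counts and 881 bp. RFX6 (27.3), PAX6 (21.0) and HNF4A (13.5) were near or below the limit of the lowest group, 20.2. PDX1, NKX6-1, NKX2-2, NEUROD1, MNX1 and MLXIPL had none, although H3K27ac at PDX1 (10149) and NKX2-2 (13803) was high. PDX1 and MAFA both activate the insulin gene. INS itself had 3078 counts of H3K27ac and no member at its promoter.

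Hormone and granule genes had a member at 13 of 24. PTPRN, a protein of the secretory granule membrane, had 458 counts, SYT7, a calcium sensor of exocytosis, 354, and RIMS2, which organizes release sites, 106. The PTPRN member was centred at -2280 bp from the nearest start and covered no start. Its core, printed above, lay at -2534 bp, outside the window of 2 kb. This member overlapped a listed enhancer region and an H3K27ac peak of 77.8 counts, whereas the highest H3K27ac peak at a PTPRN promoter had 1139. PCSK1, a prohormone convertase, had 67.0, while IAPP, CHGA, SCG3, SLC30A8, SNAP25 and VAMP2 had none. Genes of glucose sensing and excitability had one at 13 of 18. GNAS, the stimulatory G protein alpha subunit, had 384 counts and KCNJ11, the pore of the ATP-sensitive potassium channel, 348. ABCC8, the regulatory subunit of that channel, had 105 within an H3K27ac peak of 51339 bp. SLC2A2, G6PC2, KCNH2, GIPR and FFAR1 had none, although SLC2A2 had a CTCF peak in its promoter window that did not overlap H3K27ac.

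Cell cycle genes had a member at 15 of 34 (44.1%, 28.9 to 60.5%), an interval that includes the 55.1% of all active genes. The list also holds ANK3, which encodes an ankyrin and is counted among cell cycle genes by the study. CDK6, a G1 kinase, had 371 counts, PCNA, the replication clamp, 338, and ANK3 165. At PCNA and ANK3 no matrix site was found, and the ANK3 member was centred 4 bp from a start. E2F1, the transcription factor of S-phase entry, had 2 members, the stronger at 100 counts with a site 260 bp upstream of the start. MKI67, the proliferation marker, had H3K27ac (272 counts) and no member, as had CDK1, CDK2, CDK4, TOP2A, AURKA, AURKB and MCM2. At CDK4 and TOP2A a CTCF peak lay in the promoter window but did not overlap H3K27ac.

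CDK inhibitors and other genes of cell cycle arrest had one at 14 of 22. CDKN2B, the gene of p15, had 490 and CDKN1A, the gene of p21, 285. The stronger of its 2 members lay 1780 bp downstream of a start, in an intron (chr6:36679706-36681295). BBC3 (247) and MDM2 (188) were also in the highest group of level, CDKN2A, the gene of p16, had 59.8, and RB1, CDKN1B and MDM4 had none.

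Interferon response genes had a member at 17 of 25, and 15 of the 40 listed (37.5%) had no promoter H3K27ac, ISG15, IFIT3, IRF7 and STING1 among them, compared with 33.6% of all genes. TAP2, a peptide transporter, had 408 counts and IRF9, a subunit of the interferon-induced transcription complex, 318. The IRF9 core printed above lay 0.5 bp from the peak centre and had the highest matrix score of the named members. IFI35 had 111, and the shared PSMB8 and PSMB9 member 29.8.

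The list of CTCF and cohesin genes, which also holds YY1, ZNF143, MAZ, SMC5 and SMC6, had a member at 14 of 20. PDS5A, a cohesin regulator, had 867 counts without a matrix site. ESCO1, a cohesin acetyltransferase, had 530, STAG1, a cohesin subunit, 514 and CTCF 393. RAD21, the cohesin kleisin subunit, had 17.3 counts in a peak centred 1 bp from a start, and WAPL, which releases cohesin, 4.80. SMC1A, SMC3, ESCO2 and ZNF143 had none. In this list 7 of the 14 members were in the highest group of level, compared with 2213 of 7194 genes overall.

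Ribosomal protein genes, which are highly expressed in most cells, had a member at 41 of 77, with a median of 150 counts against 77.3 over all genes with a member. Of these, 18 (43.9%) were in the highest group of level, against 30.8% of all genes with a member, and 15 (36.6%) had a matrix site, against 34.8%. RPL26 (567) and RPL36 (488) were among the highest. RPS14 (310), RPS20 (289) and RPL32 (267) had no matrix site. Genes of oxidative phosphorylation had one at 29 of 62, led by ATP5MC2 (421), an ATP synthase subunit, NDUFA6 (374), of complex I, and COX6A1 (233), of cytochrome oxidase. The median of that list was 59.9. Among markers of other pancreas cells, TTR, an alpha-cell gene, had 197, IRX2 66.9 and KRT19 38.1.

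The enhancer lists of the study were built outside promoters, yet 354 members overlapped a region of either, 311 (4.05%) that of the control and 276 (3.59%) that of the senescent cells. For CTCF peaks in H3K27ac outside promoters these shares were 46.7% and 44.01%. Members in an enhancer region lay farther from a start than the rest, at a median of 774 against 275 bp. As the lists were built outside promoters, this contrast is set in part by their definition. These members had a lower CpG ratio, 0.38 against 0.73, and a matrix site in 42.7% (37.6 to 47.9%) against 31.6% (30.5 to 32.7%). Over all members the matrix share rose from 27.5% within 100 bp of a start to 41.5% at 1000 to 2000 bp. These contrasts were not separated from distance. In both lists 233 members appeared, 78 in the control list alone and 43 in the senescent list alone. Rb, which represses E2F target genes, had a list of regions found in senescent against control cells. It was met by 85 members (1.11%, 0.90 to 1.37%), 24 peaks in H3K27ac outside promoters (0.30%), 38 outside both (0.12%) and 0 of 3381 at promoters without H3K27ac, which allows a share of up to 0.0887%. When the centre of the CTCF peak had to lie in the Rb region, 23 members (0.30%) remained.

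The limits of the definition were not marked by a step in level. The 114 members in the outermost 200 bp of the promoter window had a median of 53.9 counts, and the 84 peaks in H3K27ac within 200 bp outside it 62.0. The 64 members whose overlap with H3K27ac was at most 100 bp had 31.1, and the 69 promoter peaks that missed an H3K27ac peak by at most 100 bp had 29.8.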

How the data were processed

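ChIP-seq for CTCF and H3K27ac (3 control and 3 senescent libraries each), H3K4me1 and Rb (2 and 2 each) was performed on EndoC-βH3 cells, with an input for every sample. Per the study's methods, reads were trimmed with Trim Galore and aligned to hg38 with Bowtie2, duplicates were removed from H3K27ac reads with Picard, and HOMER gave the H3K27ac peaks and MACS2 the CTCF peaks, both relative to input. CTCF duplicate removal, the joining of replicates and tool versions are not given in the sources used here. The deposited signal is the authors' mean over libraries of read counts in a peak divided by DESeq2 size factors. The deposited tables also hold log2 fold changes, standard errors, Wald statistics and p-values for senescent against control cells, which were not used. They hold no counts per library, so depth is unknown and the planned test of the change between states was not made. Summed over peaks, mean counts came to 6136424 for CTCF and 19239499 for H3K27ac. The deposited region lists hold positions and no other values. The methods describe a motif filter on CTCF peaks. The core pattern was in 23.6% of all CTCF peaks and a matrix site in 55.0%. Neither is the motif that the filter used, so whether it was applied cannot be told from them. Such a filter was not assumed.

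All 24 chromosome names were those of hg38. Windows of 2 kb were set on either side of 78567 start sites of 19663 genes. Other CTCF peaks were weighted to the members' GC content in bins of 1 point holding at least 20 of them. Shares have 95% Wilson intervals (on the effective number of peaks where weighted) and medians have order-statistic intervals, for counting error only. A zero share was bounded by 3 counts. Named genes were the 10 members with the highest mean, the 3 highest of each list, and E2F1, ANK3, MKI67, CDKN1A, INS, PDX1, MAFA, CTCF and RAD21; other list genes, GIT1 and the second set of sequences were named after their values were seen. Some genes that this rule names are not reported here. The members and lists were chosen with earlier results of these data known. Functions were tested on simulated data. Python 3.11.15, pandas 2.3.3, numpy 2.4.6, scipy 1.17.1, pysam 0.24.0 and matplotlib 3.10.9 were used.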

Additional observations from a re-analysis of the deposited data

How the results depend on the processing

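The number of CTCF peaks at promoters with H3K27ac stayed between 5893 and 7227 under a window of 1 kb, canonical starts, a centre inside the H3K27ac peak and a minimum of 20 counts. The ratio of CTCF level to GC-weighted peaks, 1.46, was 1.31 with nearest-GC pairing, 1.14 per kb and 1.21 with at least 20 counts. With GC of the 200 central bases it was 0.97 (0.89 to 1.07), so a higher level in members was no longer seen. The cause was not tested. The difference in core share, -8.78 percentage points, kept its direction in all settings: -4.29 with the looser pattern, -10.5 with nearest-GC pairing, -11.7 with at least 20 counts and, in settings added after the data were seen, -10.1 with GC of the 200 central bases, -19.3 with the distal matrix, -17.8 with it near the centre and -6.33 with the matrix learned on members. The share on the gene's strand was 55.2% by the matrix. Within 250 bp of a canonical start lay 31.8%. The H3K27ac ratio of 1.77 was 1.34 per kb, 1.35 among peaks no wider than the median, 1.06 with width bins and 1.07 with GC and width bins together. Centres inside Rb regions made up 0.30%. With a window of 1 kb, 52.6% of active genes had a member.

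No paired analysis was possible because the tables give no values per library, and leaving out single replicates was not possible for the same reason. Low means limit single peaks most, and levels of individual libraries would be needed to weigh differences against the spread between replicates.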
